A study of Mus musculus with 2 samples.

Results

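The cells described here are lung capillary endothelial cells with transcripts of Car4, a membrane-bound carbonic anhydrase, or Ednrb, the endothelin B receptor. They were taken from 2 single-cell RNA libraries of mouse lung, of which 1 came from saline-treated and 1 from nanoparticle (NP)-treated mice. A barcode was kept as a cell when it had 500 to 5000 detected genes and under 7.5% mitochondrial UMIs (unique molecular identifiers, each standing for 1 captured RNA molecule). It counted as endothelial with under 5% of its UMIs from the neutrophil genes S100a8 and S100a9, at least 3 UMIs of Cldn5, Cdh5, Pecam1 and Egfl7 together, fewer than 3 of the collagen genes Col1a2 and Col3a1, and none of Csf1r or Cd79a. Among the endothelial cells, those with at least 2 UMIs of Car4 and Ednrb together were the members. These were 162 of 436 endothelial cells and of 8662 cells in all from saline, and 510 of 1504 endothelial cells and of 8333 cells in all from NP. The libraries held 91168129 UMIs (saline) and 90081747 UMIs (NP) in total, of which the members contributed 798922 and 2872462. Median depth was 3893 UMIs per member cell in saline and 4416.5 in NP. No barcode was shared by members of the 2 libraries, and 21 barcodes were shared among all cells.

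Both groups were female BALB/cJ mice aged 12 weeks that carried 4T1 tumors, a transplanted mouse mammary carcinoma that spreads to the lung. All mice were inoculated with 100000 4T1 cells, and lungs were collected on day 14. The control group was given intravenous saline and the NP group intravenous nanoparticles of poly(lactide-co-glycolide) (PLG) without cargo, every 3 days from day 1. Lungs of 4 mice per condition were pooled before dissociation according to the sample labels, so that each group is 1 library without a replicate check, no difference between mice can be seen, and no test between the groups was possible. Every interval given below is a 95% interval that covers counting error only.

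The alveolar capillary bed of the lung is built from a pair of endothelial cell types. Aerocytes are large, thin cells with high Car4 and Ednrb that line the surface where gas is exchanged. They lack part of the general endothelial programme and supply signals such as Apln and Kitl. General capillary cells carry Gpihbp1, the anchor of lipoprotein lipase, together with the apelin receptor Aplnr and the stem cell factor receptor Kit, and serve as the progenitors of the bed. Endothelial cells respond to interferon-gamma, which raises guanylate-binding proteins, immunity-related GTPases and, through the transactivator CIITA, the MHC class II genes that present peptides to CD4 T cells.

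The rule gathered a range of cells and not only aerocytes. A Car4 UMI was found in 160 of the 162 saline members and 498 of the 510 NP members, an Ednrb UMI in 67 and 230, and both in 65 and 218. Gpihbp1, which marks the general capillary cell, had a UMI in 140 and 436 members. The members were therefore also described as those with 2 to 6 Car4+Ednrb UMIs (102 saline cells and 326 NP cells) and those with at least 7 (60 and 184), a division set after the data were seen. They were read beside general capillary cells, defined as endothelial cells without Car4, Ednrb or Vwf UMIs and with at least 2 UMIs of Gpihbp1 and Aplnr (128 saline cells and 509 NP cells). The sets also differed in depth: median depth was 6337.5 and 6891.5 UMIs in cells with at least 7, and 3153.5 and 3523 UMIs in cells with 2 to 6. The part of depth in this division was not tested. Cells with exactly 2 UMIs, just inside the threshold, numbered 46 and 139, and cells with 1 UMI, just outside it, numbered 62 and 250.

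Genes that define aerocytes but were not part of the rule were high in the cells with at least 7 UMIs. The division at 7 UMIs was set after the data were seen, so that their levels across it are a description. Levels here are UMIs per 1000000 UMIs (CPM), pooled over the cells of a set. Tbx2, a T-box transcription factor, stood at 421 CPM (360 to 489) in saline and 446 CPM (412 to 482) in NP in these cells. In cells with 2 to 6 UMIs it stood at 73.9 and 91.1 CPM, and in general capillary cells at 35.2 and 35.0 CPM. The level in cells with few Car4+Ednrb UMIs was thus closer to that of general capillary cells than to that of the cells with many, in both libraries. Fibin, a secreted protein gene, followed the same order, with 234 and 261 CPM at 7 or more UMIs and 30.6 and 25.9 CPM at 2 to 6. In general capillary cells Fibin had no UMI in saline and 3.24 CPM in NP. Emp2, a tetraspan membrane protein, stood at 2295 and 2356 CPM at 7 or more UMIs, against 665 and 806 CPM at 2 to 6 and 390 and 233 CPM in general capillary cells. Cldn5, the claudin of endothelial tight junctions, helped to choose all of these cells, so that its level is a description only. It was 6142 and 5908 CPM at 7 or more UMIs, 4279 and 3478 CPM at 2 to 6, and 3140 and 3112 CPM in general capillary cells.

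General capillary genes ran the other way. Gpihbp1 was lowest at 7 or more UMIs, with 1554 CPM (1436 to 1681) in saline and 1309 CPM (1251 to 1369) in NP. It stood at 2648 and 2576 CPM at 2 to 6 UMIs, which was near the 2702 and 2826 CPM of the general capillary cells that were chosen by it. Plvap, the protein of fenestral diaphragms, was 802 and 538 CPM at 7 or more UMIs, 1466 and 1395 CPM at 2 to 6, and 1999 and 1708 CPM in general capillary cells. Cd93, a C-type lectin of vessels, was 440 and 304 CPM, then 1313 and 994 CPM, then 969 and 958 CPM in the same order of sets. By this description the label of aerocytes fitted the 60 saline and 184 NP cells with at least 7 UMIs. The other members carried most general capillary genes at levels close to those of general capillary cells. Just inside the membership threshold, at 2 UMIs, Tbx2 stood at 29.7 CPM in saline and 56.9 CPM in NP and Gpihbp1 at 2878 and 2661 CPM, and just outside it, at 1 UMI, Tbx2 stood at 56.8 and 70.7 CPM and Gpihbp1 at 1954 and 2696 CPM. For this reason the members are called Car4/Ednrb endothelial cells below.

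**Figure D1:**
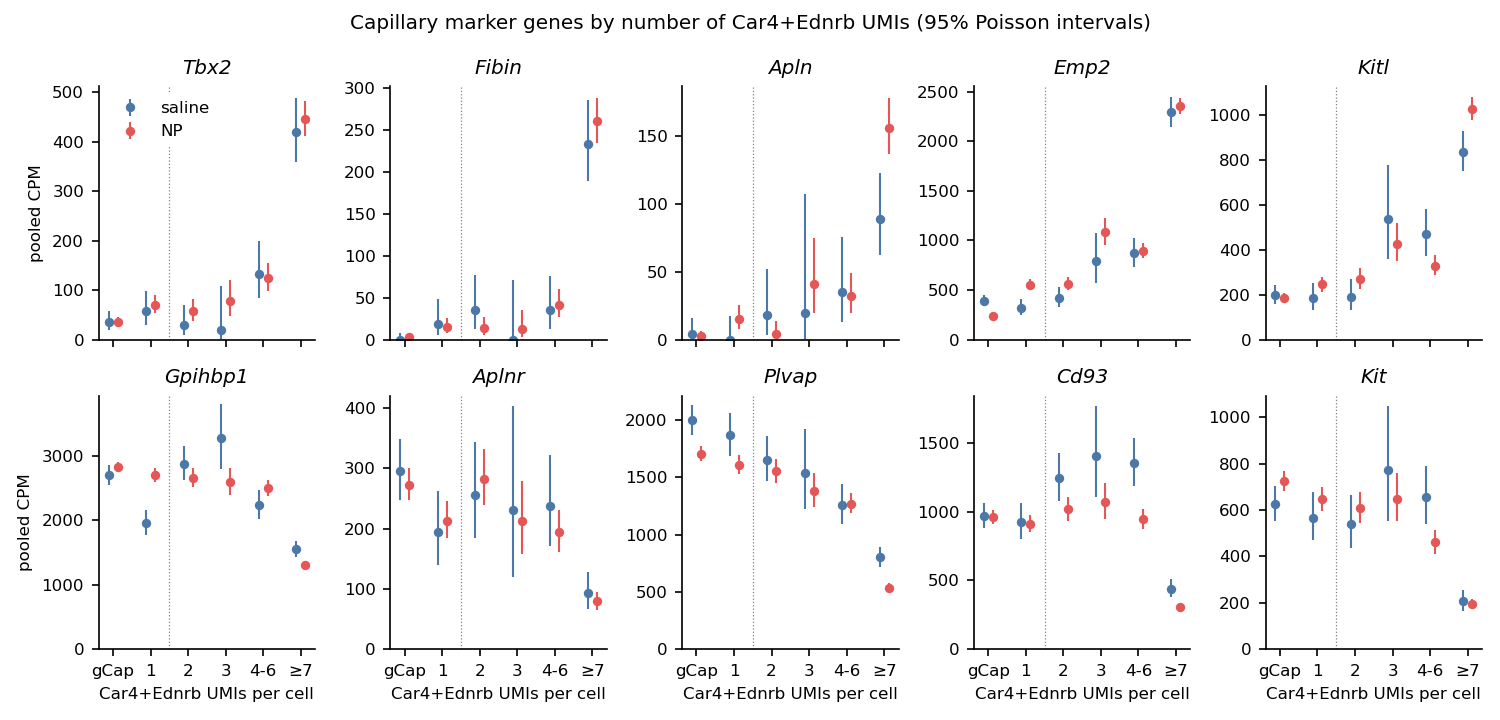
Pooled level (CPM, y axis, linear from 0) of 5 aerocyte genes (top) and 5 general capillary genes (bottom) by the number of Car4+Ednrb UMIs per cell (x axis; gCap, general capillary cells; the dotted line is the membership threshold), for saline (blue) and NP (red), with bars for 95% Poisson intervals. Tbx2, Fibin and Apln sat low up to 6 UMIs and high at 7 or more, and Gpihbp1, Aplnr, Plvap, Cd93 and Kit were lowest at 7 or more, in both libraries.

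Several ligand and receptor pairs were split between the capillary sets. Apln, the apelin peptide, stood at 88.5 CPM (62.0 to 123) in saline and 156 CPM (137 to 178) in NP in cells with at least 7 UMIs, and at 4.40 and 2.59 CPM in general capillary cells. Its receptor gene Aplnr stood at 93.5 and 79.5 CPM in the former and 295 and 273 CPM in the latter. Kitl, the stem cell factor, was 839 and 1030 CPM at 7 or more UMIs against 198 and 185 CPM in general capillary cells, whereas its receptor Kit was 207 and 194 CPM against 625 and 725 CPM. In both pairs the ligand was higher in the Car4/Ednrb cells with many UMIs and the receptor higher in general capillary cells. Aplnr UMIs helped to choose the general capillary cells, so that its place there was favoured by the choice of cells. For VEGF-A the sides were exchanged. Vegfa stood at 81.2 and 106 CPM at 7 or more UMIs and 414 and 487 CPM in general capillary cells, while its receptor Kdr stood at 1390 and 1562 CPM against 321 and 355 CPM. Edn1, which encodes the ligand of the endothelin B receptor, was 51.7 and 56.0 CPM against 203 and 277 CPM, while its receptor gene Ednrb was part of the rule and is not compared.

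Across all genes with at least 50 UMIs in the pair of sets, members were at least 2-fold above general capillary cells for 3.62% of 4226 genes in saline and 3.01% of 8177 genes in NP, and at least 2-fold below for 2.01% and 1.82%. For the cells with at least 7 UMIs alone, 5.40% of 3093 genes in saline and 4.85% of 7034 genes in NP were at least 2-fold above, and 4.75% and 5.16% at least 2-fold below. The sets were made from the same cells by Car4, Ednrb, Vwf, Gpihbp1 and Aplnr, so that these shares and the genes that follow are a description. Among the 12 that were furthest above in both libraries, apart from the genes of the rule, were Fibin, Chst1, Ccdc184, Il1a, Tnxb, Krt80, Chst2, Tbx2, Ptp4a3 and Gab1. Ptp4a3, a tyrosine phosphatase of vessels, was the most abundant of the 12, at 522 CPM in saline members and 554 CPM in NP members, with log2 ratios of 2.40 and 2.33. Krt80, an intermediate filament gene, had log2 ratios of 3.03 and 2.90. Those furthest below in both libraries were Ager, Edn1, Ivns1abp, Cxcr4, Scgb3a1, Vegfa, Syt15, Ctsc, Sftpc, Neurl3, Sema3g and 4632427E13Rik. Of these, Ager, Scgb3a1 and Sftpc are genes of lung epithelium, and Sftpc reached 15491 CPM in saline and 5080 CPM in NP in the general capillary cells. The part of epithelial RNA in those ratios was not tested.

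Car4/Ednrb cells made up a larger share of the NP library. They were 1.87% (1.60 to 2.18) of all saline cells and 6.12% (5.62 to 6.66) of all NP cells, a ratio of 3.27 (2.75 to 3.90). Endothelial cells as a whole had a similar ratio of 3.59 (3.24 to 3.97). Within the endothelial cells the share was 37.2% (32.6 to 41.9) in saline and 33.9% (31.5 to 36.4) in NP, a ratio of 0.913 (0.793 to 1.05), an interval that included 1 and covers the counting of cells in 1 library per group. The cells with at least 7 UMIs were 13.8% (10.7 to 17.4) and 12.2% (10.6 to 14.0) of the endothelial cells. Neutrophils took different parts of the libraries, which moves every share of all cells, and cells under the S100a8 and S100a9 limit were 3113 of 8662 in saline and 5190 of 8333 in NP. Among these, members were 5.20% (4.45 to 6.04) in saline and 9.83% (9.03 to 10.7) in NP, a ratio of 1.89 (1.59 to 2.24). Shares in a dissociated and pooled tissue carry the yield of dissociation, and its part in these ratios was not tested.

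The question of the NP comparison was which genes differed in Car4/Ednrb cells between the treatments. Interferon-induced genes and MHC class II genes were higher in NP, while the lists of endothelial identity, junction, adhesion and transport genes had medians near 0. The identity, junction and adhesion lists hold genes that the rule used (Cldn5, Cdh5, Pecam1 or Egfl7). Their medians are therefore in part a description of the choice of cells. Of 7612 genes with at least 50 UMIs over both libraries, 155 (2.04%) were at least 2-fold higher in NP and 68 (0.893%) at least 2-fold lower, with a median log2 ratio over all genes of -0.02. These counts were 50 and 12 in the members without Gpihbp1, Aplnr or Vwf UMIs, and 52 and 10 when cells were thinned to 1500 UMIs before they were chosen. Among the 6346 genes that passed this minimum, were also detected in at least 10% of the cells of the library with the higher level, and were not used by the rule, 69 (1.09%) were at least 2-fold higher and 35 (0.552%) lower. A gene can pass this limit through the higher library alone, as Ciita did, with a UMI in 2.47% of saline and 14.5% of NP members. These counts, and the genes named from this set, are therefore a description. The 12 with the largest positive ratios in this set were Ciita, Iigp1, H2-Eb1, Gbp5, Cd274, Tgtp2, Igtp, Cd74, H2-DMb1, Gbp4, Gbp6 and Nr1d1. All but Nr1d1, a repressor of the circadian clock, are genes that interferon-gamma is known to induce.

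Immunity-related GTPases and guanylate-binding proteins, which attack vacuoles of intracellular pathogens, were 6 of these 12. Iigp1 had 57 UMIs in saline (71.3 CPM) and 1228 UMIs in NP (428 CPM), a ratio of 5.99 (4.59 to 7.96). Igtp stood at 37.6 CPM (25.3 to 53.6) in saline and 193 CPM (177 to 210) in NP, a ratio of 5.15 (3.56 to 7.70). Iigp1 had a UMI in 39.2% of NP members. For Igtp this was 39.4%. Gbp4 stood at 114 and 497 CPM, a ratio of 4.37 (3.53 to 5.46), and was the most abundant of the guanylate-binding protein genes. Gbp5 had 6 UMIs in saline and 117 in NP, a ratio of 5.42 (2.42 to 15.1), and Gbp7 stood at 96.4 and 280 CPM, a ratio of 2.91 (2.30 to 3.72). Summed over 17 such GTPase genes the level was 720 CPM (662 to 781) in saline and 2542 CPM (2484 to 2601) in NP, a ratio of 3.53 (3.24 to 3.85). Reads of near-identical copies such as Tgtp1 and Tgtp2 or Gbp2 and Gbp2b can be divided between the copies by the counting, so that their separate values are uncertain.

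Of the interferon-gamma list of 33 genes, 31 had at least 20 UMIs, and all 31 had a higher level in NP. Of the 31 genes 21 were at least 2-fold higher, against 4.01% of all 9870 genes with at least 20 UMIs, and none was 2-fold lower, against 2.15%. This and the other gene lists were chosen with earlier results of these data known, and a gene can pass the minimum mainly through 1 library. The list counts are therefore a description. The median log2 ratio of the list was 1.59. It was 0.83 in the 21 saline and 68 NP members without Gpihbp1, Aplnr or Vwf UMIs, and 1.00 when cells were thinned to 1500 UMIs before they were chosen. Irf1, an early target of the pathway, stood at 180 and 292 CPM, a ratio of 1.62 (1.35 to 1.95). Its log2 ratio of 0.69 ran from 0.08 to 1.65 over the alternative settings. Ly6a, the most abundant gene of the list, stood at 4442 and 4572 CPM with a log2 ratio of 0.04, so that the summed level of the list moved less than its median. Cxcl10, a chemokine that draws CXCR3-bearing lymphocytes, had no UMI in saline members, and its 85 UMIs in NP came from 1.96% of the cells, 29 of them from 1 cell. Cd274, which encodes PD-L1, the ligand of the inhibitory receptor PD-1, had 8 UMIs in saline and 154 in NP, that is 10.0 CPM (4.32 to 19.7) and 53.6 CPM (45.5 to 62.8).

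The list of interferon-alpha response genes had a smaller median. Of 28 measured genes of the interferon-alpha list 24 were higher in NP, 2 of them at least 2-fold, against 4.01% of all genes, and the median log2 ratio was 0.47. At 7 or more UMIs 6 of 24 were 2-fold higher, against 4.66% of all genes, with a median of 0.68. At 2 to 6 UMIs this was 2 of 23, against 4.87%, with a median of 0.27, and in general capillary cells 7 of 25, against 4.57%, with a median of 0.52. Ifitm3, the most abundant of them, stood at 2741 and 2956 CPM with a log2 ratio of 0.11 (0.04 to 0.18). Isg15, a ubiquitin-like modifier, stood at 61.3 and 102 CPM with a log2 ratio of 0.73 (0.29 to 1.20), and Bst2 at 355 and 437 CPM with 0.30 (0.11 to 0.49). Ifit1, a sensor of viral RNA, had 13 UMIs in saline and 70 in NP, and the interval of its log2 ratio of 0.58 ran from -0.28 to 1.56.

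**Figure D2:**
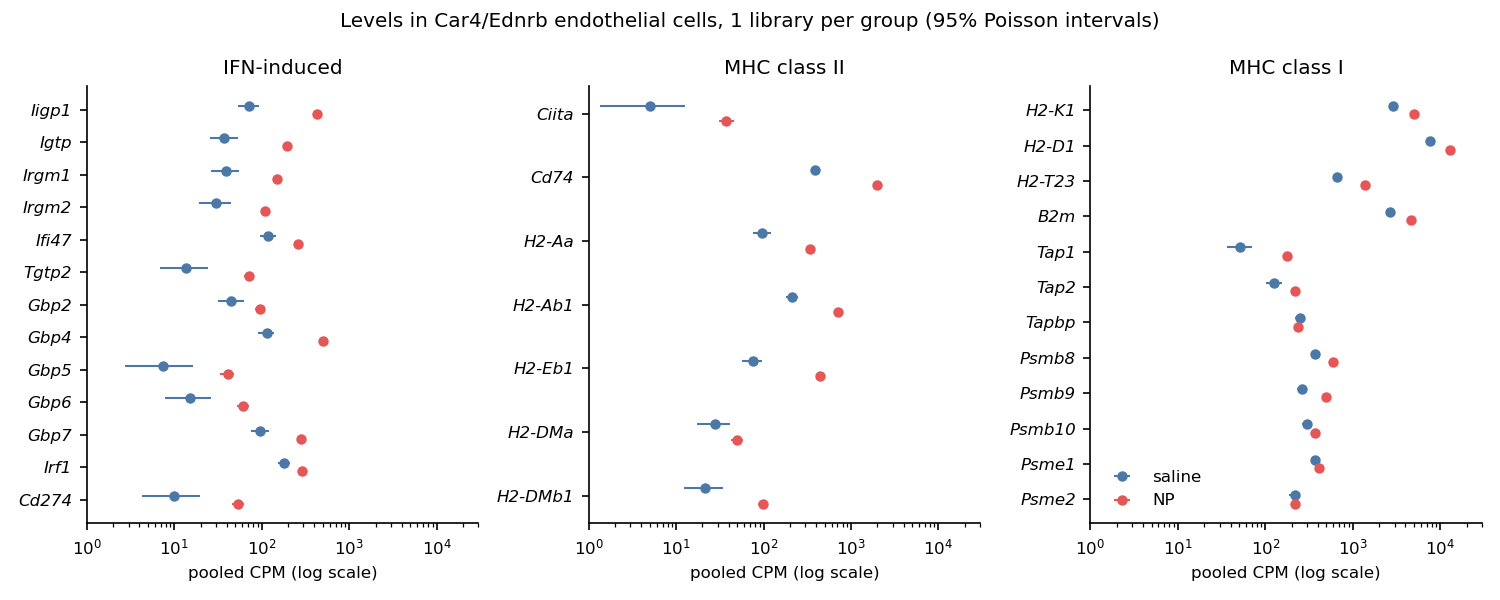
Pooled level (CPM, log axis) of interferon-induced, MHC class II and MHC class I genes in Car4/Ednrb endothelial cells of the saline (blue, 162 cells) and NP (red, 510 cells) library, with 95% Poisson intervals where wider than the point. Iigp1 stood at 71.3 CPM in saline and 428 in NP, and Cd74 at 387 and 1973, whereas Tapbp and Psme2 coincided.

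Short promoter sequences show which of these genes carry the known control letters of the pathway. The gamma-activated site (GAS) was searched as TTCNNNGAA, the site of interferon-regulatory factors (ISRE) as GAAA followed after 2 bases of any kind by GAAA, and the Y box of MHC promoters as CTGATTGG, each on both strands, from 250 bases before to 50 bases after the start of each gene in RefSeq (GRCm38.p6). Below, with matches in capitals, are the 180 bases before the start of 4 genes that held a match, of the groups higher in NP. They lie at chr11:58199376-58199555 on the plus strand (Igtp), chr3:142496754-142496933 on the plus strand (Gbp5), chr17:34305687-34305866 on the plus strand (H2-Eb1) and chr17:34287824-34288003 on the minus strand (H2-Aa).
Igtp: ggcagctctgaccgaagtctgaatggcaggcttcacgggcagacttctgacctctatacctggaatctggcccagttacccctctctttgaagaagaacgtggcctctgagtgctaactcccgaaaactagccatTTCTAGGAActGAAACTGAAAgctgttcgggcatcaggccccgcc
Gbp5: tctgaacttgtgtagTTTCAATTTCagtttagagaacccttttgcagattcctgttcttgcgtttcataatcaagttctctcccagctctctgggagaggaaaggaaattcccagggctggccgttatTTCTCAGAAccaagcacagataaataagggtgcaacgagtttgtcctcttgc
H2-Eb1: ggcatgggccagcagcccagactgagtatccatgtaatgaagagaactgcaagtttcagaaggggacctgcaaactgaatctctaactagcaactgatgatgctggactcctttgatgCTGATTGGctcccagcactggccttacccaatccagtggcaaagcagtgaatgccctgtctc
H2-Aa: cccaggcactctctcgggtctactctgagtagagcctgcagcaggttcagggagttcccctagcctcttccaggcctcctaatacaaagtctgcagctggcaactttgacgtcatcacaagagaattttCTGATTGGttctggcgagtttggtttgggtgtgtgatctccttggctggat

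In Igtp a GAS match stood just before an ISRE match, and Gbp5 held an ISRE match on the other strand between a pair of GAS matches, of which the farther lies outside the bases printed. Of the 17 interferon-gamma list genes with a promoter in the table, 12 (70.6%) held an ISRE match and 7 (41.2%) a GAS match. Among all 27025 promoters the shares were 3.99% and 9.55%, and among the 7825 genes measured here that had one they were 3.78% and 8.31%. The Y box was found in 3 of 7 MHC class II list genes (42.9%) and 8 of 20 MHC class I list genes (40.0%), against 4.70% of all promoters and 6.40% of those of measured genes. The class II list held a GAS match in 1 of 7 promoters and an ISRE match in 1 of 7, and the class I list in 10.0% and 25.0% of its 20. Of the 12 genes with the largest positive ratios 7 had a promoter, of which 3 held a GAS match, 3 an ISRE match and 1 a Y box. The promoters of Cd274, H2-DMb1 and Nr1d1 held no match of any of these motifs. A match of letters is a description of the window and not a shown binding site.

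MHC class II genes, which in lung are carried by capillary endothelium as well as by professional antigen-presenting cells, had the largest median of the pathway lists. Ciita, the transactivator of the class II promoters, had 4 UMIs in saline (5.01 CPM, 1.36 to 12.8) and 108 in NP (37.6 CPM, 30.8 to 45.4), a ratio of 7.51 (2.85 to 28.1). Cd74, the invariant chain that guides class II molecules, stood at 387 CPM (345 to 432) in saline and 1973 CPM (1922 to 2025) in NP, a ratio of 5.10 (4.55 to 5.74). The chain genes followed, with H2-Eb1 at 75.1 and 439 CPM, H2-Aa at 96.4 and 343 CPM and H2-Ab1 at 213 and 712 CPM. Of the peptide exchange genes, H2-DMb1 stood at 21.3 and 97.8 CPM and H2-DMa at 27.5 and 50.1 CPM. All 8 measured genes of the list were higher in NP and 7 of them at least 2-fold, against 4.01% of all genes, with a median log2 ratio of 2.28 against -0.02. The class II list was also chosen with earlier results known, so that these values are a description. Ctss, the protease that trims the invariant chain, was among the 7, but 91 of its 158 NP UMIs came from 1 cell. The summed level of the list was 835 CPM (773 to 901) in saline and 3709 CPM (3639 to 3780) in NP, a ratio of 4.44 (4.11 to 4.81).

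More cells contributed in NP. With each cell thinned to 1500 UMIs, which left out 24 saline and 54 NP members of lower depth, a UMI of the class II list was found in 37.7% (29.6 to 46.3) of 138 saline cells and 72.8% (68.5 to 76.8) of 456 NP cells. Before thinning they were 51.2% and 79.2% of all members. In neutrophil-like cells, which had median depths of 6484 and 5581 UMIs, the thinned shares for the class II list were 5.41% and 9.80%, and without thinning 17.9% and 30.4%. For Cd74 alone the thinned shares were 2.83% and 5.14% in neutrophil-like cells, against 21.0% and 65.8% in members. Iigp1 had a UMI in 6.52% (3.03 to 12.0) of thinned saline cells and 25.2% (21.3 to 29.5) of NP cells, against 0.0198% and 0.338% of neutrophil-like cells. For the class II list and Iigp1 the shares in members lay above those in neutrophil-like cells of the same library. For Cd274 they lay below in both libraries, with no UMI in thinned saline members against 1.43% of neutrophil-like cells, and 6.14% against 9.88% in NP. For Igtp they were 2.17% against 2.58% in saline and 21.5% against 18.3% in NP. Whether neutrophil-like cells themselves express these 2 genes, or members of the class II list such as Ctss, was not tested. This comparison therefore sets no background for Cd274 and Igtp, and an uncertain one for the class II list. With the profile of barcodes under 50 UMIs taken as free RNA, and all S100a8 and S100a9 UMIs of the members taken to come from it, 0.932% of their saline UMIs and 1.19% of their NP UMIs would be free RNA. This would give 7.24 of the 387 CPM of Cd74 in saline and 23.1 of the 1973 CPM in NP. For Igtp in NP it would give 0.922 of the 193 CPM. The rule held S100a8 and S100a9 under 5% of UMIs in every member, so that this estimate was bounded by the choice of cells.

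MHC class I genes were much more abundant and differed less. H2-D1 stood at 7632 CPM in saline and 12953 CPM in NP, a ratio of 1.70 (1.65 to 1.74), and H2-K1 at 2891 and 4982 CPM, a ratio of 1.72 (1.65 to 1.80). B2m, the light chain, stood at 2696 and 4593 CPM, a ratio of 1.70 (1.63 to 1.78). H2-D1, H2-K1 and B2m thus had nearly the same ratio, while the class Ib genes H2-T23 and H2-Q7 had larger log2 ratios of 1.04 and 1.49, against 0.77 for B2m. Tap1, a subunit of the peptide transporter, had a larger ratio of 3.49 (2.53 to 4.92), from 51.3 to 179 CPM, and its partner Tap2 one of 1.72 (1.40 to 2.15). The immunoproteasome subunits Psmb9 and Psmb8 had ratios of 1.89 (1.63 to 2.19) and 1.60 (1.41 to 1.82), and Psmb10 one of 1.23 (1.07 to 1.42). Tapbp, which bridges the transporter and class I, and Psme2, a proteasome activator subunit, had intervals that included 1, with ratios of 0.951 (0.811 to 1.12) and 1.00 (0.844 to 1.19). Nlrc5, the transactivator of class I genes, had 6 UMIs in saline and 65 in NP, a ratio of 3.01 (1.31 to 8.51). Of the 22 measured list genes 19 were higher in NP and 4 at least 2-fold, against 4.01% of all genes, with a median log2 ratio of 0.77, and the summed level stood at 17998 and 30112 CPM. Class I heavy chain genes are close copies, and their separate values are uncertain.

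The class II level varied along the range of Car4/Ednrb cells. In NP it was 5312 CPM (5193 to 5433) in cells with 2 to 6 UMIs and 2129 CPM (2054 to 2206) in cells with at least 7. In saline it was 1007 CPM (910 to 1111) and 669 CPM (592 to 753). Cells rich in aerocyte genes therefore had a smaller part of their UMIs on class II genes than the other members in both libraries. The sets differed in depth, so that these levels do not give class II RNA per cell. In both sets the NP level was higher, by a ratio of 5.28 (4.77 to 5.85) at 2 to 6 UMIs and 3.18 (2.81 to 3.62) at 7 or more. General capillary cells stood at 2176 CPM (2042 to 2316) in saline and 5873 CPM (5753 to 5995) in NP, a ratio of 2.70 (2.53 to 2.89). Ratios in other endothelial sets lay on both sides of the 4.44 (4.11 to 4.81) of all members. Endothelial cells with 0 Car4+Ednrb UMIs, which include the general capillary cells, had 3.48 (3.29 to 3.69). Cells with 1 Car4+Ednrb UMI had 8.92 (7.51 to 10.7). Cells with at least 2 Vwf UMIs and fewer than 2 of Car4 and Ednrb had 14.2 (10.0 to 20.8). The saline levels of these sets were 1566, 639 and 231 CPM, so that the last 2 lay below the 669 CPM of cells with at least 7 UMIs. After thinning, a class II UMI was found in 22.8% of 57 saline cells and 45.4% of 183 NP cells with at least 7 UMIs, and in 45.7% of 81 and 89.7% of 273 cells with 2 to 6. Class I did not follow this order. The class I sum in NP was 32273 CPM in cells with at least 7 UMIs, above the 27921 CPM of cells with 2 to 6 and the 27923 CPM of general capillary cells. The GTPase sum was also lower at 7 or more UMIs than at 2 to 6, with 580 CPM in saline and 2334 CPM in NP at 7 or more UMIs, 864 and 2753 CPM at 2 to 6 and 817 and 3067 CPM in general capillary cells, where the saline level was below that at 2 to 6 UMIs. Its NP level was higher by ratios of 4.02 (3.52 to 4.61) at 7 or more UMIs, 3.19 (2.85 to 3.57) at 2 to 6 and 3.75 (3.38 to 4.18) in general capillary cells. Differences between these ratios were not tested, since each rests on 1 library per group.

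**Figure D3:**
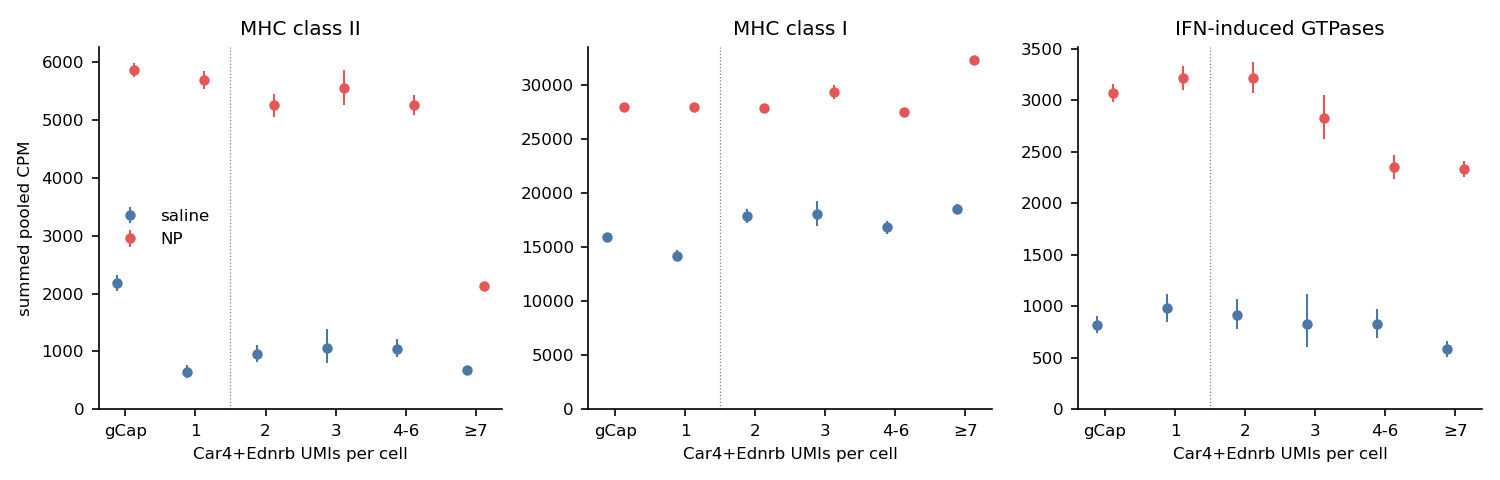
Summed pooled level (CPM, y axis, linear from 0) of the MHC class II, MHC class I and interferon-induced GTPase genes by the number of Car4+Ednrb UMIs per cell (x axis; gCap, general capillary cells; dotted line, membership threshold), saline in blue and NP in red, with 95% Poisson intervals. NP lay above saline in every set, and the class II level in NP was lowest, at 2129 CPM, in cells with at least 7 UMIs.

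Single genes repeated this. In the cells with at least 7 UMIs, Iigp1 stood at 29.5 CPM in saline and 361 CPM in NP, a log2 ratio of 3.61 (2.80 to 4.57), and Igtp had a log2 ratio of 2.79 (1.96 to 3.76). Cd74 had log2 ratios of 1.74 (1.49 to 2.00) in these cells, 2.70 (2.48 to 2.93) at 2 to 6 UMIs and 1.34 (1.21 to 1.47) in general capillary cells. In that last set Cd74 was already at 1211 CPM in saline, and 3071 CPM in NP. H2-K1 had nearly equal log2 ratios of 0.85, 0.71 and 0.88 in the 3 sets. The interferon-gamma list had medians of 1.46 at 7 or more UMIs, 1.67 at 2 to 6 and 1.67 in general capillary cells, with 21 genes at least 2-fold higher in each, where 4.66%, 4.87% and 4.57% of all genes with at least 20 UMIs were. No gene of the list was 2-fold lower in any of the 3 sets, where 2.80%, 2.68% and 3.58% of all genes were.

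**Figure D4:**
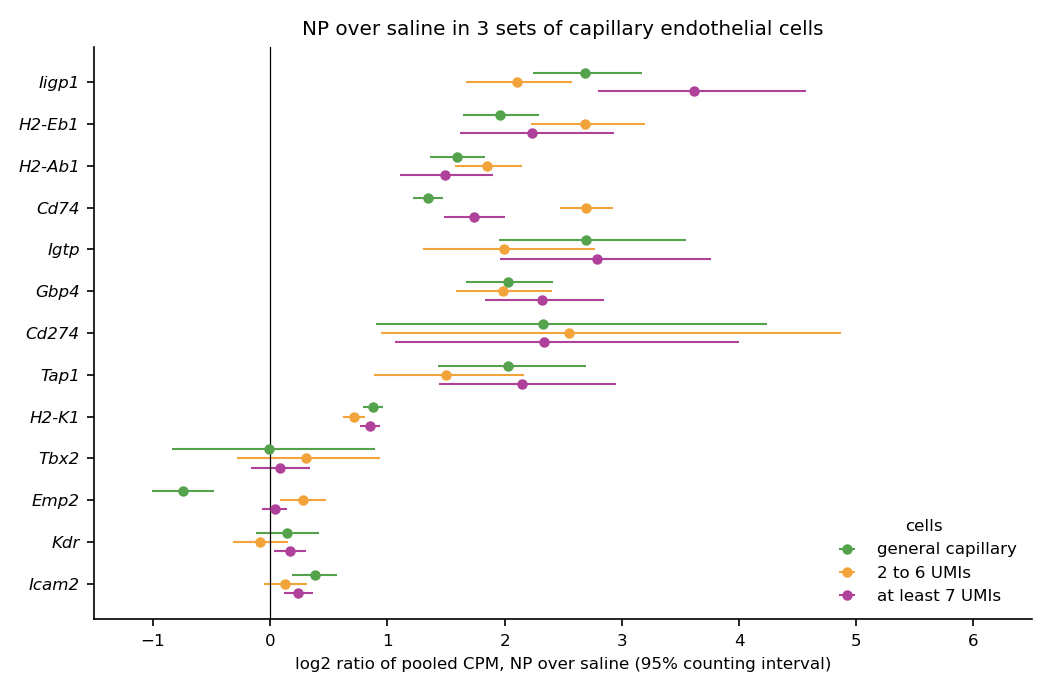
Log2 ratio of pooled CPM, NP over saline (x axis), of 13 genes in general capillary cells (green), Car4/Ednrb cells with 2 to 6 UMIs (orange) and with at least 7 UMIs (purple), with 95% counting intervals. Interferon-induced and MHC genes lay right of 0 in all 3 sets, and Tbx2, Kdr and Icam2 lay near 0.

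Identity genes of the capillary had medians near that of all genes. The list of 16 aerocyte genes holds Car4, Ednrb and Cldn5, which the rule used, so that its values are in part a description of the choice of cells. Of the 16 genes 1 was at least 2-fold higher in NP, near the 4.01% of all genes, and their median log2 ratio was 0.11. The 1 was Sirpa, with 25 UMIs in saline and 192 in NP, of which 28 came from 1 cell. With Gpihbp1, Aplnr and Vwf at 0 the log2 ratio of Sirpa was -0.10. Apln had a log2 ratio of 0.65 (0.19 to 1.13), Tbx2 0.11 (-0.12 to 0.34), Kdr 0.10 (-0.02 to 0.22) and Emp2 0.09 (-0.01 to 0.18). Of 12 general capillary genes 1 was at least 2-fold higher, again near that share, and the median was -0.12. Cxcl12, the chemokine that retains CXCR4-bearing cells, was that gene, with 96 UMIs in saline (120 CPM) and 841 in NP (293 CPM), a log2 ratio of 1.28 (0.98 to 1.60). Cxcl12 is also an artery gene. Of 9 measured artery genes 2 were at least 2-fold higher in NP, against 4.01% of all genes. These were Cxcl12 and Fbln2, the latter with no UMI in saline and 23 in NP. The artery list had a median of 0.37 and a summed level of 1105 and 1340 CPM, led by Efnb2. At 2 to 6 UMIs 4 of 8 artery genes were 2-fold higher, against 4.87% of all genes, with a median of 0.78, and at 7 or more 1 of 6, against 4.66%, with a median of -0.18. The part of arterial cells in the Cxcl12 ratio was not tested. Cd93 was lower in NP, at 869 CPM against 646 CPM, a log2 ratio of -0.43 (-0.55 to -0.30), and Gpihbp1 stood at 2092 and 1938 CPM, a log2 ratio of -0.11 (-0.19 to -0.03).

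Other pathways of endothelium had medians near that of all genes, while some held single genes past 2-fold. Over the 21 pathway lists beside the interferon and MHC lists, medians ran from -0.16 (coagulation) to 0.18 (chemokines and cytokines). Of 26 measured chemokine and cytokine genes 6 were at least 2-fold higher and 1 lower, against 4.01% and 2.15% of all genes. Several of these had most of their UMIs in few cells, with 201 of the 246 NP UMIs of Ccl4 and 168 of the 290 of Ccl3, both neutrophil and macrophage chemokines, in 1 cell, and 117 of the 118 saline UMIs of Ccl5 in 1 cell. Of 25 vasoactive genes 6 were at least 2-fold higher and 1 lower, against the same 4.01% and 2.15% of all genes. Gucy1a1 and Gucy1b1, which encode the subunits of the nitric oxide receptor, were among the higher, with log2 ratios of 1.85 (1.24 to 2.53) and 1.79 (1.03 to 2.66), and 70 of the 299 NP UMIs of Gucy1a1 were in 1 cell. Mural cells also carry these subunits, and the mural cell genes summed to 93.9 CPM in saline and 222 CPM in NP, led by Cox4i2. Their part in these ratios was not tested. Of 11 checkpoint and costimulation ligands 3 were at least 2-fold higher (Cd274, Sirpa and H2-T23), against 4.01% of all genes. Of these, Sirpa was lower with Gpihbp1, Aplnr and Vwf at 0. Of 13 particle uptake receptors 3 were at least 2-fold higher (Axl, Dab2 and Mrc1), against 4.01% of all genes. Mrc1 had 28 of its 53 NP UMIs in 1 cell. These genes were named after their values were seen. No measured leukocyte adhesion gene of 17 reached 2-fold in either direction, with a median of 0.05, counts that lie near the 4.01% and 2.15% of all genes. Icam2, which binds leukocyte integrins, stood at 1204 and 1382 CPM, a log2 ratio of 0.20 (0.10 to 0.30), and Pecam1, which also helped to choose the cells, at 1275 and 1239 CPM. Sele, the inducible E-selectin, had no UMI in either library. Of 20 junction genes none was 2-fold higher and 1 was lower, again near those shares, and Cdh5, the cadherin of endothelial junctions and part of the rule, stood at 1885 and 1956 CPM. Among receptors that take up particles, Cd36 stood at 2591 and 2170 CPM, a log2 ratio of -0.26 (-0.33 to -0.18), and Scarb1, a lipoprotein receptor, at 170 and 139 CPM. Nfkbia, the inhibitor that NF-kB induces, was higher at 517 and 803 CPM, a log2 ratio of 0.64 (0.48 to 0.79), while the median of its list was -0.01. The heat shock genes Hspb1 and Hspa8 had log2 ratios of 0.71 (0.57 to 0.86) and 0.42 (0.31 to 0.53), and the dissociation stress list as a whole had a median of 0.05, with Jun at 2114 and 2151 CPM.

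**Figure D5:**
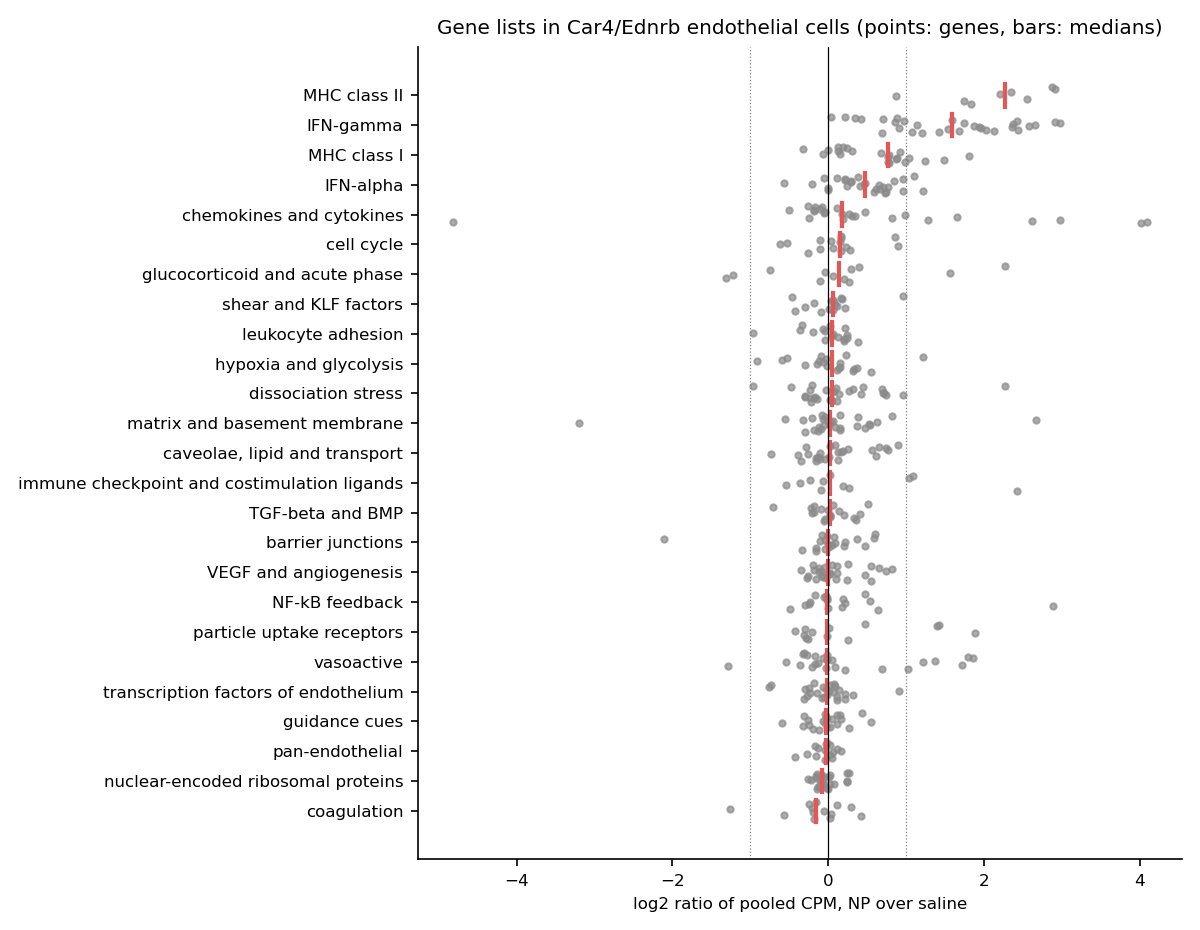
Log2 ratio of pooled CPM, NP over saline (x axis), of each gene with at least 20 UMIs (points) in 25 pathway lists (y axis), in Car4/Ednrb endothelial cells, with red bars for list medians and dotted lines at 2-fold. MHC class II (2.28) and IFN-gamma (1.59) had the highest medians, followed by MHC class I (0.77) and IFN-alpha (0.47).

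The 12 lowest genes in NP were taken from the same set as the 12 highest, with its minimum of UMIs and of detection. They were Sftpc, Lyz2, Zbtb11, Retnlg, Ifitm6, Tceal1, Zbtb16, Ccar2, Ptgs1, Pgm2l1, Insig1 and Ankrd37. Zbtb16, a zinc finger gene that glucocorticoids induce, had 56 UMIs in saline (70.1 CPM, 52.9 to 91.0) and 81 in NP (28.2 CPM, 22.4 to 35.0), a log2 ratio of -1.31 (-1.82 to -0.80). Ptgs1, the constitutive cyclooxygenase, stood at 47.6 and 19.5 CPM, a log2 ratio of -1.29 (-1.91 to -0.65), and Ankrd37, a hypoxia-inducible gene, at 71.3 and 29.6 CPM, a log2 ratio of -1.27 (-1.77 to -0.76). Retnlg and Ifitm6 are neutrophil and myeloid genes, and their UMIs were spread thinly, with at most 2 in 1 saline cell.

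Sftpc and Lyz2 came mostly from a few cells. Lyz2, the lysozyme of myeloid and alveolar type 2 cells, had 1135 UMIs in saline, 1083 of them in 1 cell, and 743 in NP, 310 of them in 1 cell. Sftpc, the surfactant protein of alveolar type 2 cells, had 5939 UMIs in saline, 4987 of them in 1 cell, and 3158 in NP, 2830 of them in 1 cell. Of the 8 alveolar type 2 genes 7 were at least 2-fold lower in NP, against 2.15% of all genes, with a summed level of 9410 CPM in saline and 1696 CPM in NP, but 7456 of the 7518 saline UMIs of the list lay in 2 cells and 4436 of the 4873 NP UMIs in 1 cell. Without the 13 saline and 13 NP members that had more than 1% of their UMIs on genes of other cell classes, the log2 ratio of Sftpc was 0.79 in place of -2.76. Without the same cells the median of the interferon-gamma list was 1.56, that of MHC class I 0.76 and the log2 ratio of Cd74 was 2.63. With all members these values were 1.59, 0.77 and 2.35. This setting was chosen after the data were seen, and the part of RNA from other cell classes in these values was not tested.

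Markers of blood and stromal cells were measured beside these ratios, and the counts that follow stand against 4.01% of all genes at least 2-fold higher and 2.15% at least 2-fold lower. The 5 leukocyte genes, led by Srgn, summed to 667 CPM in saline and 839 CPM in NP. Of these 4 were higher in NP and 2 at least 2-fold, Tyrobp and Laptm5, with 40.1 and 113 CPM for Tyrobp and 16.3 and 46.7 CPM for Laptm5. Both turned direction under other settings. The log2 ratio of Tyrobp was -0.21 with Ptprc at 0 and -0.59 with no S100 limit. That of Laptm5 was -0.17 without cells over 1% of other-class markers. Ptprc, the defining gene CD45, had a UMI in 7 of 162 saline members and 40 of 510 NP members, and stood at 48.8 and 33.4 CPM, a log2 ratio of -0.55. With Ptprc at 0, the log2 ratio of Cd74 was 2.35. Neutrophil genes summed to 1945 CPM in saline and 1486 CPM in NP, of which S100a9 was the most abundant and 3 of 8 measured genes were at least 2-fold higher in NP and 1 lower. S100a8 and S100a9 were limited by the rule. Monocyte and macrophage genes summed to 1462 and 364 CPM, led by Lyz2, with 2 of 5 higher and 2 lower, and Csf1r (0 by the rule), Marco and Treml4 at 0. The 6 B cell genes (Cd79a 0 by the rule) had 5 UMIs in saline and 29 in NP, none of them measured by the minimum of 20 UMIs. T cell genes summed to 93.9 and 19.1 CPM (3 of 3 lower, Trbc2 most abundant), NK cell genes to 128 and 9.40 CPM (2 of 2 lower, Gzma most abundant) and platelet genes to 230 and 73.5 CPM (4 of 4 lower, Pf4 most abundant). Mural cell genes were the stromal set that was higher in NP, with 93.9 and 222 CPM and 4 of 6 at least 2-fold higher, led by Cox4i2 at 51.3 and 96.1 CPM. Fibroblast genes summed to 126 and 123 CPM, with no gene of 6 past 2-fold, led by Tcf21 and with Lum at 0. Col1a2 and Col3a1 of this list were limited by the rule. Airway epithelial genes summed to 144 and 201 CPM, led by Scgb1a1, with 2 of 3 measured genes at least 2-fold higher, and the 4 mesothelial genes were at 0. Alveolar type 1 genes, led by Hopx, summed to 2407 and 2346 CPM, with none of 7 past 2-fold. The part of such RNA in the single gene ratios of these cells was not tested.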

How the data were processed

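The authors deposited, for each library, an unfiltered 10x Genomics matrix of UMI counts per gene and barcode. The matrix header names Cell Ranger 4 and the submitters' processing notes name Cell Ranger 6.0 with the mm10 genome, and the counting settings are not given in the sources used here. Lungs were pooled from 4 mice per condition per the labels, and from 5 according to the study's methods.

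Counts were used as deposited. Cells passed the limits given above, and no doublet caller was run. UMIs were summed over the cells of a set within a library, divided by all UMIs of that set (CPM), and compared as a log2 ratio, counts under 3 in a library being set to 3 for ratios. Intervals are exact (Poisson for levels, Clopper-Pearson for shares, conditional binomial for ratios), at 95%, and cover counting error only. With 1 library per group no model was fitted. Genes had at least 50 UMIs over both libraries, or 20 within lists. Named genes were the 12 highest and 12 lowest of those not used by the rule and detected in 10% of the cells of the library with the higher level, the 12 furthest above and below general capillary cells in both libraries, and the most abundant genes of each list. A few others (those of low count in the lists, Nr1d2 and other clock genes) were named after their values were seen. The members and gene lists were chosen with earlier results of these data known. Sequences came from RefSeq (GRCm38.p6), and 317 of 317 named genes had a position in the annotation. Python 3.11.15, numpy 2.4.6, scipy 1.17.1 and pandas 2.3.3 were used, and the interval code was tested on simulated data. Some genes that meet the rule for named genes are not reported here.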

Additional observations from a re-analysis of the deposited data

Results flagged for a closer look

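For 7 genes the log2 ratio of NP over saline was at least 1 in size in both Car4/Ednrb cells and general capillary cells and ran in opposite directions. The differences were not tested, since each ratio rests on 1 library per group, and most of these genes mark other cell types. Chil3, a macrophage gene, had 4.23 in Car4/Ednrb cells and -1.68 in general capillary cells, and 132 of its 203 NP UMIs in the former came from 1 cell. Cxcr2, a neutrophil receptor, had 2.50 and -1.5, with 2 UMIs in saline and 61 in NP. Gzma, a granzyme of NK cells, had -4.09 and 3.96, and all 57 of its saline UMIs came from 1 cell. Nkg7, another NK cell gene, had -2.39 and 1.61, with 12 of 19 saline UMIs in 1 cell. Pf4, a platelet gene, had -1.37 and 1.61, with 59 of 106 saline UMIs in 1 cell. Hba-a2, a globin gene, had -1.13 and 1.19 on 14 and 23 UMIs. Mt1, a metallothionein that metals and glucocorticoids induce, had 2.27 and -2.21, with 50 of its 121 NP UMIs in 1 cell.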

How the results depend on the processing

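No paired analysis was possible because each group is 1 library. Thresholds on Car4 and Ednrb, detected genes, mitochondrial share, S100a8 and S100a9, Ptprc and counts, and the weight of cells, were changed 1 at a time. The settings of at least 7 Car4+Ednrb UMIs and of leaving out cells with over 1% of other-class markers were chosen after seeing the data. The log2 ratio of the share of all cells (1.71) was 1.59 to 1.91 over 14 alternatives, and that of the share of endothelial cells (-0.13) was -0.20 to -0.02. The cause of the changes below was not tested. The IFN-gamma median (1.59) was 1.30 with a UMI of each of Car4 and Ednrb, 0.83 with Gpihbp1, Aplnr and Vwf at 0, 1.79 with no S100 limit, 1.00 with cells thinned to 1500 UMIs before gating and 1.86 with equal weight per cell. The MHC class I median (0.77) was 0.64 with Gpihbp1, Aplnr and Vwf at 0, 0.70 under 5% mitochondrial UMIs and 0.85 with no S100 limit. The aerocyte list median (0.11) was 0.0056 with both genes, 0.26 with no S100 limit, 0.16 at 7 or more UMIs and -0.011 after thinning, and the leukocyte adhesion median (0.05) was 0.13 at 7 or more. The dissociation stress median (0.05) was -0.092 at 1 or more Car4+Ednrb UMIs, -0.064 at 3 or more, -0.10 with Gpihbp1, Aplnr and Vwf at 0, -0.025 under 5% mitochondrial UMIs, -0.11 with Ptprc at 0, -0.0098 at 7 or more, -0.036 without cells over 1% of other-class markers, -0.13 after thinning and -0.0018 with equal weight. Genes at least 2-fold higher (155) and lower (68) were 50 and 12 with Gpihbp1, Aplnr and Vwf at 0, 52 and 10 after thinning, 258 and 127 with equal weight, 396 and 212 at a minimum of 20 UMIs and 67 and 21 at 100. Lower genes were 39 with a UMI of each gene and 138 with no S100 limit. Among named genes, 17 reversed. At 1 or more UMIs Ccl21a was -1.14, Cd3g 0.41, Hba-a2 2.33 and Trbc2 0.12. With both genes Pf4 was 1.69. With Gpihbp1, Aplnr and Vwf at 0, Sftpc was 1.03 and Sirpa -0.10. With S100 genes under 1% Csf3r was -0.24. With no S100 limit Cd68 was -0.30, Chil3 -0.45, Csf3r -0.89, Cxcr2 -1.09 and Tyrobp -0.59. With Ptprc at 0, Chil3 was -0.16, Csf3r -0.24, Ly6c2 0.40 and Tyrobp -0.21. At 7 or more Itga2b was 0.43. Without cells over 1% of other-class markers Chil3 was -0.28, Csf3r -1.24, Itga2b 0.19, Laptm5 -0.17, Lyz2 0.81, Sftpb 0.23 and Sftpc 0.79. After thinning Lyz2 was 1.19 and Sftpc 0.16. Cd74 stayed between 1.51 and 2.95 and Iigp1 between 2.26 and 4.12 over their alternatives. Depth leaves wide counting intervals for genes with few saline UMIs, such as Ciita with 4.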

Other observations

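Nr1d1, which encodes the clock repressor REV-ERB alpha, was the 1 gene among the 12 highest that is not an interferon target. It had 7 UMIs in saline and 98 in NP, a log2 ratio of 1.96 (0.86 to 3.31). Its paralog Nr1d2 had 6 and 72 UMIs, a log2 ratio of 1.74 (0.55 to 3.23). Other clock genes had intervals that included 0, with Per1 at 0.20 (-0.50 to 0.97), Arntl at 0.29 (-0.72 to 1.45), Dbp at 0.32 (-1.28 to 2.35) and Ciart at -0.90 (-1.88 to 0.15). These genes were picked after Nr1d1 was seen, and the hour at which lungs were collected is not given in the sources used here.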
